A study of Homo sapiens with 10 samples.

Results

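The 10 genes described here encode the mTOR kinase, subunits of its complexes, the proteins that switch it on or off, and substrates that it phosphorylates. They were taken by symbol from the deposited count table, which lists 22626 rows: MTOR, RPTOR, RICTOR, MLST8, AKT1S1, TSC1, TSC2, RHEB, RPS6KB1 and EIF4EBP1. Every one of the 10 had a row, and every one passed the filter on low counts among the 14936 rows tested. The cells were ARPE-19, an established human line of retinal pigment epithelium (RPE), the layer that supports the photoreceptors. The control group (n = 5) was kept for 48 h in 5.5 mM glucose with 32 mM mannitol, a sugar alcohol that balances the osmotic strength of the medium, and the high glucose (HG) group (n = 5) for 48 h in 37.5 mM glucose. No genetic change was made in either group. Since the labels name no mannitol for the HG group, glucose and mannitol differ together and their parts cannot be told apart. The labels also do not say whether the libraries of a group came from separate cultures, so a p-value here measures the spread between these libraries, which may be technical.

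mTOR is a serine/threonine kinase that couples nutrients and growth signals to protein synthesis, cell growth and autophagy. With RPTOR and MLST8 it forms mTORC1, in which AKT1S1 (PRAS40) acts as an inhibitor. With RICTOR and MLST8 it forms mTORC2, which phosphorylates AKT and SGK1. The GTPase RHEB activates mTORC1 at the lysosome, the TSC1-TSC2 complex turns RHEB off, and the Rag GTPases bring mTORC1 to the lysosome when amino acids are present. Active mTORC1 phosphorylates RPS6KB1 (S6K1), a kinase that promotes translation, and EIF4EBP1 (4E-BP1), a repressor of cap-dependent translation that lets go of eIF4E once phosphorylated. In the RPE the pathway is known for its part in cell size, metabolism and dedifferentiation. The measurements are mRNA levels, and the activity of the kinase, which is read from phosphorylated proteins, was not analysed here.

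Total counts were between 33039260 and 45864176 in the control libraries and between 32448991 and 44400714 in the HG libraries. TXNIP, which is induced by glucose, was at 0.978 ± 0.224 CPM (counts scaled to library size) in the control group and 8.72 ± 2.76 CPM in the HG group (mean ± SD, n = 5 each), in the direction of the labels. Markers of cell types moved with the groups. The 16 RPE markers summed to between 2840 and 3600 CPM in the control and between 1800 and 2480 CPM in the HG libraries. Of these 16, 5 stayed under 1 CPM in every library, and RPE65 and TTR were at or near 0. Of the 12 tested 3 were lower in edgeR, PMEL, KRT8 and KRT18, and 0 higher, where 7.8% of all rows were lower. With the GC correction 7 were lower and 0 higher, where 14.8% of all rows were lower. At an unadjusted p under 0.05 in edgeR 7 were lower and 0 higher, against 28.5% of all rows in either direction. DESeq2 called 5 of 13 tested lower (19.9% of all rows in either direction) and limma 3 (13.6%), and 0 higher. Fibroblast markers summed to 206 to 254 CPM in the control and 105 to 131 CPM in the HG libraries, with both tested markers, COL1A1 and PDGFRB, lower and the other 4 under 1 CPM. Leukocyte markers summed to 54.5 to 81.1 CPM and 102 to 143 CPM, nearly all of it CD68, which was higher, with PTPRC, AIF1 and CD3E at or near 0. Endothelial markers summed to 2.93 to 5.05 CPM and 2.13 to 3.01 CPM, with KDR lower, and those of photoreceptors and neurons to 1.89 to 2.97 CPM and 2.08 to 2.81 CPM. The part of these shifts in the results on the mTOR genes was not tested. In control replicate 2 and in the HG library named HG_1, genes rich in G and C had higher counts, by 0.17 and 0.188 on the log2 scale per 10 points of GC content, while the other 8 libraries had slopes between -0.0916 and -0.00519. Since these libraries stand apart in both groups, values are also given after each library was corrected for its trend on GC content and transcript length, and without both libraries.

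Promoter sequences were available for 7 of the 10 genes (RefSeq, GRCh38.p14, 250 bases before to 50 after the start site). They were searched on both strands for the E-box CACGTG, for the longer lysosomal CLEAR element, which is that E-box with GT before and AC after it and is bound by factors of the TFEB family, and for TGATGNAA, the amino acid response element bound by ATF4. Across 35116 promoters of the same length, 7.26% held the E-box, 0.353% the lysosomal element and 3.62% the amino acid response element. RHEB is shown because it was called higher in high glucose, and TSC2, whose product turns RHEB off, because it held matches. No promoter of EIF4EBP1, the other gene called higher, or of MLST8 or AKT1S1 was searched. Matches are in capitals, and bases are written in the direction of transcription.
RHEB, chr7:151519846-151520145, minus strand: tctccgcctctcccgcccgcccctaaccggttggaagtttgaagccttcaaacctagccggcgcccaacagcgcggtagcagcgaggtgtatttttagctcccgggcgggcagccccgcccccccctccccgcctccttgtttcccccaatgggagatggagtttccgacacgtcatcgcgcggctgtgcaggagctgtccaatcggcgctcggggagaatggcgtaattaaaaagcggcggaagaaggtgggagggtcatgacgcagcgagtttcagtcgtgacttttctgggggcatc
TSC2, chr16:2047735-2048034, plus strand: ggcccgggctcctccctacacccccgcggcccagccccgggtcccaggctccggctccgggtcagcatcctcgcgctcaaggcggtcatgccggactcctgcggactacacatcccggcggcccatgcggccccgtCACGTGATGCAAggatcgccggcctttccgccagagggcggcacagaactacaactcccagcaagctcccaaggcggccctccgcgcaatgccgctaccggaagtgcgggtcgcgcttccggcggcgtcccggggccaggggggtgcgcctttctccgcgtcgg
The RHEB promoter held none of the searched letters. In TSC2 the E-box, whose first base lies at -114 from the start site, and the amino acid response element, whose first base lies at -110, overlap each other. TSC2 was the 1 gene of the 7 with an E-box and the 1 with an amino acid response element, and 0 held the lysosomal element. A further TSC2 promoter in the table, at chr16:2047952-2048251, held none of the 3 motifs.

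In the HG group the mRNA of 2 of the 10 genes, RHEB and EIF4EBP1, was higher and that of 0 was lower (edgeR's quasi-likelihood test, Benjamini-Hochberg adjusted p under 0.05). The counts of higher and lower genes were also 2 and 0 at an unadjusted p under 0.05 in edgeR (28.5% of all rows), in DESeq2 (19.9%) and in limma on log2(FPKM + 1) (13.6%). Over all 14936 rows 15.4% were called, 7.62% higher and 7.8% lower. The median log2 fold change was 0.0659 over the 10 genes, 6 of them above 0, and 0.0013 over all rows tested. The groups did not overlap in CPM for RHEB and EIF4EBP1, 2 of the 10, against 13.6% of all rows, 6.74% higher and 6.91% lower. In bulk RNA such as this, a change in the number of cells with a transcript and a change in its level per cell cannot be told apart.

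RHEB (ENSG00000106615, GRCh38 chromosome 7, bases 151466012 to 151520120, minus strand) encodes the small GTPase that turns mTORC1 on. Its level was 125, 138, 131, 133 and 138 CPM in control replicates 1 to 5, and 158, 151, 157, 155 and 146 CPM in HG_1 to HG_5. The lowest HG library lay above the highest control library, so the groups were separate in CPM. In FPKM they overlapped, with a control maximum of 86.5 and an HG minimum of 85.3. RHEB rose 1.15-fold, from 133 ± 5.21 to 153 ± 4.72 CPM (log2 fold change 0.21, SE 0.0415, adjusted p = 0.00728 by edgeR). It rose by 0.16 after the GC correction (adjusted p = 0.00225) and by 0.21 without control replicate 2 and HG_1 (adjusted p = 0.00333, edgeR). In its longest coding transcript 8.05% of 100-base windows also occur in other loci, among them the pseudogenes RHEBP1 and RHEBP2, so some of its reads could be shared with them.

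EIF4EBP1 (ENSG00000187840, chromosome 8, bases 38030341 to 38060365, plus strand) encodes the translation repressor 4E-BP1. Control replicates 1 to 5 held 34.9, 48.2, 37.2, 40.6 and 40.6 CPM, and HG_1 to HG_5 held 73.1, 49.9, 55.0, 50.2 and 55.1 CPM. Control replicate 2 was the highest of its group and HG_1 the highest of all 10, yet every HG library lay above every control library. EIF4EBP1 rose 1.41-fold, from 40.3 ± 5.01 to 56.7 ± 9.53 CPM (log2 fold change 0.49, SE 0.118, adjusted p = 0.017 by edgeR). Once corrected for GC content and length, control replicate 2 held 36.5 CPM and HG_1 51.7 CPM, the lowest values of their groups. The corrected log2 fold change was 0.47 with a smaller SE of 0.0549 (adjusted p = 6.6e-05), and without both libraries it was 0.46 (adjusted p = 0.000875, edgeR). No exon of another annotated gene overlaps EIF4EBP1. Over 21 alternative analyses the log2 fold change lay between 0.16 and 0.22 for RHEB and between 0.39 and 0.57 for EIF4EBP1, and both were called in all 21.

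**Figure D1:**
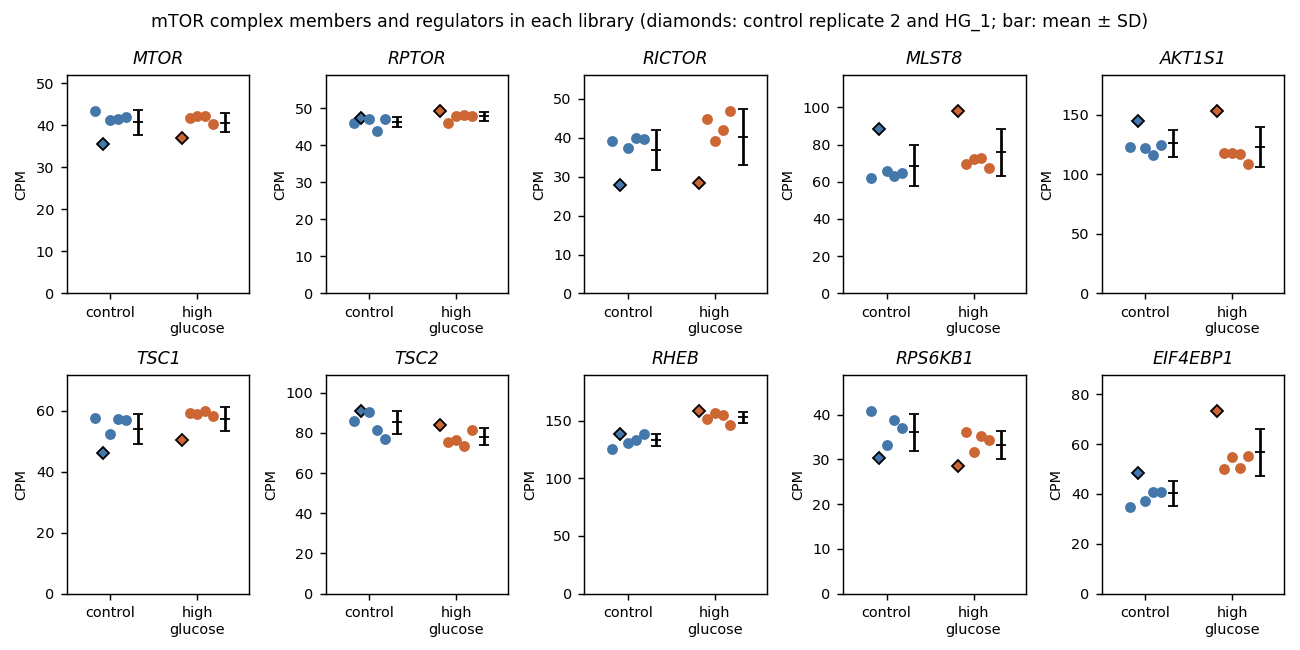
Level of each of the 10 genes in CPM in the 5 control and 5 HG libraries, with 1 point per library and the group mean ± SD. The control and HG points are separate for RHEB and EIF4EBP1 and overlap for the other 8 genes.

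The kinase itself did not pass the test. MTOR (ENSG00000198793, chromosome 1, bases 11106535 to 11262507, minus strand) was at 43.4, 35.7, 41.4, 41.5 and 42.0 CPM in control replicates 1 to 5 and at 37.0, 41.8, 42.3, 42.2 and 40.3 CPM in HG_1 to HG_5. The lowest library of each group was the one with the GC trend, and the groups overlapped. The means were 40.8 ± 2.96 and 40.7 ± 2.22 CPM (log2 fold change -0.0035, SE 0.0634, adjusted p = 0.979 by edgeR). After the GC correction the log2 fold change was 0.06 (SE 0.0434, adjusted p = 0.346, edgeR).

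RPTOR, the scaffold that brings substrates to mTORC1 (chromosome 17, bases 80544819 to 80966371, plus strand), had 46.2 ± 1.4 CPM in the control and 47.8 ± 1.18 CPM in the HG group. Its log2 fold change of 0.05 did not pass the test (SE 0.0422, adjusted p = 0.512), and after the GC correction it was 0.12 and passed (SE 0.0381, adjusted p = 0.0324, edgeR). Without control replicate 2 and HG_1 it was 0.05 (adjusted p = 0.368). RPTOR was the steadiest of the subunits, with libraries between 43.9 and 49.2 CPM.

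RICTOR, the scaffold of mTORC2 (chromosome 5, bases 38937919 to 39074408, minus strand), had the largest SE of the 10 genes. The control replicates 1 to 5 held 39.1, 27.8, 37.4, 40.0 and 39.7 CPM, and HG_1 to HG_5 held 28.4, 44.7, 39.2, 41.9 and 46.8 CPM. Control replicate 2 and HG_1 were the lowest libraries by a wide margin, and the other libraries of both groups overlapped. The log2 fold change of 0.13 did not pass (SE 0.14, adjusted p = 0.617, edgeR). After the GC correction a log2 fold change of 0.14 had an SE of 0.0481 and an adjusted p of 0.0452 in edgeR, and without both libraries an adjusted p of 0.0894.

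MLST8, the subunit common to both complexes (chromosome 16, bases 2204248 to 2209416, plus strand), stood the other way around. Its level was 61.8, 88.4, 65.6, 63.1 and 64.8 CPM in control replicates 1 to 5, and 97.9, 69.5, 72.1, 72.5 and 67.2 CPM in HG_1 to HG_5. Control replicate 2 lay within the HG range and HG_1 above all other libraries, and apart from these 2 every HG library lay above every control library. The log2 fold change of 0.14 did not pass (SE 0.125, adjusted p = 0.524), while it passed after the GC correction (0.16, adjusted p = 0.00666) and without both libraries (0.14, adjusted p = 0.0218, all by edgeR). AKT1S1, the inhibitor PRAS40 (chromosome 19, bases 49869033 to 49878459, minus strand), was at 126 ± 11.2 CPM in the control and 123 ± 17.0 CPM in the HG group. HG_1 held 153 CPM and the other 4 HG libraries between 109 and 118 CPM. Its log2 fold change was -0.04 (SE 0.0929, adjusted p = 0.857, edgeR).

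TSC1 and TSC2 encode hamartin and tuberin, whose complex turns RHEB off. TSC1 (chromosome 9, bases 132891348 to 132946874, minus strand) was at 57.6, 46.1, 52.5, 57.4 and 57.0 CPM in control replicates 1 to 5 and at 50.3, 59.3, 58.8, 59.8 and 58.4 CPM in HG_1 to HG_5. Apart from HG_1, every HG library lay above every control library. The log2 fold change of 0.08 did not pass (SE 0.0744, adjusted p = 0.526), and after the GC correction it was 0.14 and passed (SE 0.0399, adjusted p = 0.0215, edgeR). Without control replicate 2 and HG_1 it was 0.07 (adjusted p = 0.181).

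TSC2 (chromosome 16, bases 2047465 to 2089487, plus strand) was at 85.8, 90.7, 90.5, 81.5 and 77.2 CPM in control replicates 1 to 5 and at 84.0, 75.6, 76.4, 73.5 and 81.2 CPM in HG_1 to HG_5. The groups overlapped, with 3 of 5 HG libraries below all control libraries. Of the 8 genes not called it had the lowest adjusted p (log2 fold change -0.12, SE 0.059, adjusted p = 0.196, edgeR). With 1 surrogate variable in the edgeR fit its log2 fold change was -0.15 and passed (adjusted p = 0.0254), and after the GC correction it was -0.05 (adjusted p = 0.463). RPS6KB1, the kinase S6K1 (chromosome 17, bases 59893046 to 59950564, plus strand), had 36.0 ± 4.12 CPM in the control and 33.2 ± 3.05 CPM in the HG group, and its log2 fold change of -0.12 did not pass in any analysis (SE 0.0912, adjusted p = 0.461, edgeR). Whether counting used the strand of the reads is not given in the sources used here, and on the opposite strand exons of TSC1 overlap GFI1B, those of TSC2 overlap NTHL1 and PKD1, those of MLST8 overlap BRICD5, those of RICTOR overlap OSMR, and those of MTOR overlap MTOR-AS1.

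**Figure D2:**
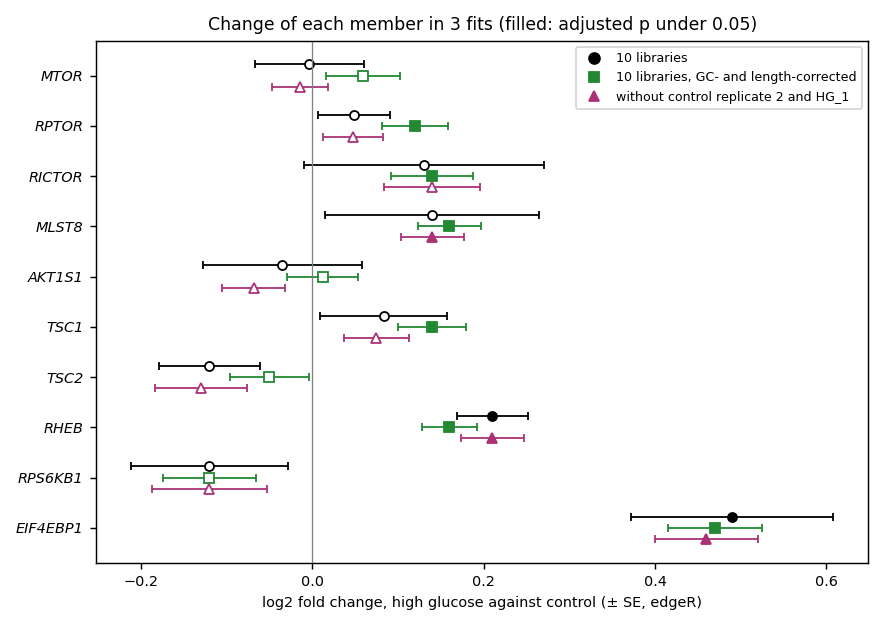
Log2 fold change of the 10 genes, HG against control, with its SE, as deposited, after the GC and length correction, and without control replicate 2 and HG_1. RHEB and EIF4EBP1 stay at or above 0.16 in all 3, while MTOR and AKT1S1 lie near 0.

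The spread within groups followed the base composition of the transcripts. Against the mean of the other 4 libraries of its group on the log2 scale, control replicate 2 was lower for RICTOR by -0.49 and higher for MLST8 by 0.47. HG_1 differed by -0.60 for RICTOR and by 0.48 for MLST8. The longest coding transcript of RICTOR holds 36.5% G and C and that of MLST8 64.1%. Over the 10 genes the GC content had a Pearson r of 0.889 with the deviation of control replicate 2 and of 0.905 with that of HG_1, and the deviations of both libraries had an r of 0.983 with each other. These r values describe 10 genes in 2 libraries, and the genes are not independent replicates. After the correction the deviation of RICTOR was -0.10 in control replicate 2 and -0.09 in HG_1, and that of MLST8 0.09 and -0.01.

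**Figure D3:**
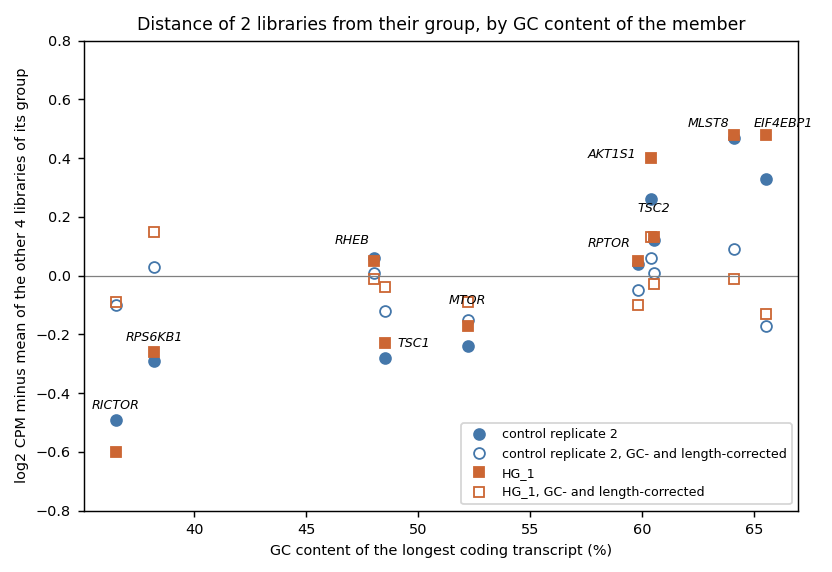
Deviation (log2) of control replicate 2 and of HG_1 from the other 4 libraries of their group against percent GC of the longest coding transcript. Each library has 1 filled point per gene, and 1 open point after the GC and length correction. Filled points of genes below 50% G and C, RHEB excepted, lie below 0 and those above, MTOR excepted, lie above 0. Open points do not keep to this, with EIF4EBP1 at -0.17 in control replicate 2 and -0.13 in HG_1.

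In all, 6 of the 10 genes were called after the correction, each higher in HG: RPTOR, RICTOR, MLST8, TSC1, RHEB and EIF4EBP1. The share of all 13538 rows called was then 29.3%, 14.5% higher and 14.8% lower. The corrected CPM of the groups did not overlap for 4 genes, MLST8, TSC1, RHEB and EIF4EBP1, against 21.8% of all rows (10.8% higher in HG). Without control replicate 2 and HG_1 the genes called were MLST8, RHEB and EIF4EBP1, 3 of 10 against 27.1% of all rows, 13.3% higher and 13.8% lower. With 1 surrogate variable 5 of 10 were called, RICTOR, TSC1, RHEB and EIF4EBP1 higher and TSC2 lower, against 33.0% of all rows, 16.5% in each direction. The values of the 4 genes added by the correction lay between 0.12 and 0.16 on the log2 scale.

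Levels can be compared between genes only per length of transcript, for which the FPKM values were used. RHEB was the highest of the 10 in the control group at 80.4 ± 4.38 FPKM, followed by AKT1S1 at 47.5 ± 4.78, EIF4EBP1 at 44.9 ± 5.06 and MLST8 at 38.5 ± 5.33 FPKM. Of these, the ranges of AKT1S1 and EIF4EBP1 and those of EIF4EBP1 and MLST8 overlapped. TSC2 stood at 12.7 ± 0.836 FPKM. TSC1, RPTOR and RPS6KB1 lay close together at 6.44 ± 0.554, 6.28 ± 0.206 and 6.2 ± 0.786 FPKM, with overlapping ranges. The kinase MTOR (4.27 ± 0.398 FPKM) and RICTOR (3.58 ± 0.563 FPKM) were the lowest, and their ranges overlapped. In the HG group EIF4EBP1, at 63.5 ± 9.09 FPKM, stood above AKT1S1, at 45.2 ± 4.73 FPKM, with no overlap. The order of the other 8 genes by mean was the same in both groups.

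Ratios of counts within a library do not depend on its depth. The log2 ratio of RPTOR to RICTOR, the scaffolds of mTORC1 and mTORC2, was 0.34 ± 0.248 in the control and 0.27 ± 0.309 in the HG group (difference -0.071, p = 0.587, two-sided exact permutation test, Benjamini-Hochberg adjusted over 3 ratios 0.587). It was highest in control replicate 2 (0.77) and HG_1 (0.79). The log2 ratio of TSC1 to TSC2 was -0.66 ± 0.222 and -0.45 ± 0.175 (difference 0.21, exact permutation p = 0.143, adjusted 0.214). With the GC correction this difference was 0.187 with an exact permutation p of 0.0397, which adjusted over the 3 ratios was 0.0595.

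EIF4EBP2 encodes the paralogous repressor 4E-BP2 and was not called (134 CPM in the control and 126 CPM in the HG group, log2 fold change -0.09, adjusted p = 0.295, edgeR). The log2 ratio of EIF4EBP1 to EIF4EBP2 was -1.98, -1.38, -1.89, -1.74 and -1.72 in control replicates 1 to 5 and -0.62, -1.34, -1.19, -1.41 and -1.25 in HG_1 to HG_5. Apart from control replicate 2, which reached the HG range, the control libraries were lower than every HG library. The mean ratio was higher in HG by 0.58 (exact permutation p = 0.0159, adjusted over the 3 ratios 0.0477). With the GC correction the difference was 0.545 and the exact permutation p 0.00794, the smallest that 5 against 5 libraries can give (adjusted 0.0238). The adjusted call was lost without any of control replicates 1, 3, 4 and 5 or of HG_2, HG_3 and HG_5 (0.0951 each). Without control replicate 2 and HG_1 together the difference was 0.535, at an exact permutation p of 0.0286, the smallest that 4 against 4 libraries can give (adjusted over the 3 ratios 0.0857).

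The other genes of the pathway were taken from 7 lists holding 95 genes, all of which were tested. In edgeR 19 of the 95 were called, 13 higher and 6 lower, against 15.4% of all rows (7.62% higher and 7.8% lower). The shares of all rows called under other settings were 28.5% at an unadjusted p under 0.05, 19.9% in DESeq2, 13.6% in limma, 29.3% after the GC correction, 27.1% without control replicate 2 and HG_1 and 33.0% with 1 surrogate variable. All counts by list are from edgeR unless another tool is named.

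**Figure D4:**
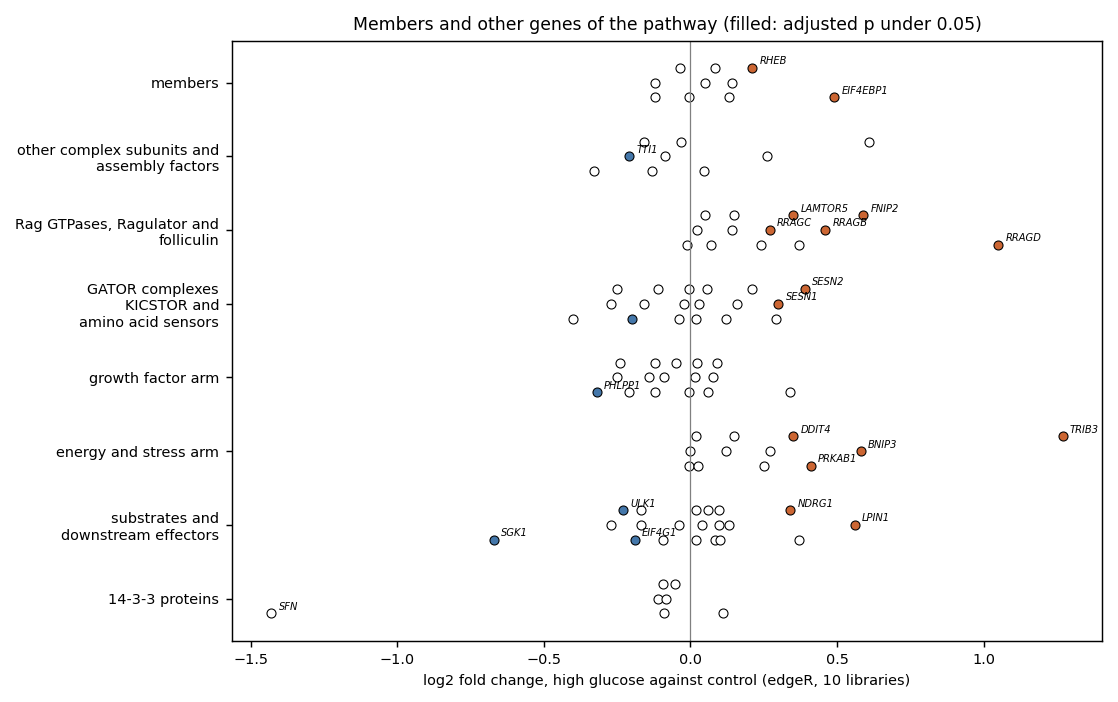
Log2 fold change, HG against control, of the 10 genes (top) and of the 95 other pathway genes in 7 lists, with 1 point per gene and called genes filled. The Rag GTPase, Ragulator and folliculin list and the energy and stress list have medians of 0.2354 and 0.2004, and the other 5 lists have medians between -0.0889 and 0.0289.

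Of 13 genes of the Rag GTPases, the Ragulator that anchors them to the lysosome, and the folliculin complex, 5 rose and 0 fell (38.5%, against 15.4% of all rows), and 12 had a log2 fold change above 0. At an unadjusted p under 0.05 in edgeR 8 were higher and 0 lower (28.5% of all rows), and DESeq2 and limma each called 6 higher and 0 lower. The counts were 7 and 0 after the GC correction (53.8%, against 29.3% of all rows). They were also 7 and 0 without control replicate 2 and HG_1 (53.8%, against 27.1%). RRAGD, a Rag GTPase, was at 30.9, 45.8, 51.5, 45.2 and 46 CPM in control replicates 1 to 5 and at 81.8, 91.7, 90.6, 96.5 and 93.4 CPM in HG_1 to HG_5, so that the groups were far apart. It rose from 43.9 ± 7.68 to 90.8 ± 5.51 CPM (log2 fold change 1.05, SE 0.115, adjusted p = 0.000257, edgeR). RRAGB, another Rag GTPase, rose from 12.4 ± 1.46 to 17.1 ± 1.18 CPM (log2 fold change 0.46, adjusted p = 0.00613, edgeR). LAMTOR5, a Ragulator subunit, rose by 0.35 and the folliculin partner FNIP2 by 0.59 on the log2 scale, with adjusted p of 0.0193 and 0.0182 in edgeR, and both lost their call without control replicate 1, LAMTOR5 also without control replicate 5 (adjusted p up to 0.0521). The fifth was RRAGC, a Rag GTPase named after its values were seen, which rose by 0.27 (adjusted p = 0.0229, edgeR) and lost its call in 3 of 21 alternatives, each without 1 HG library (HG_2, HG_4 or HG_5, adjusted p up to 0.0596).
Promoters of 10 of the other pathway genes, chosen after their values were seen, were searched for the same motifs. Of these, 2 held a match, RRAGC with 1 E-box and RRAGB, while FNIP2, LAMTOR5, TRIB3, SESN2, DDIT4, SGK1, LPIN1 and EIF4EBP2 held none. No promoter of RRAGD was available to search. The RRAGB promoter is shown because it held both the E-box and the lysosomal element, again with matches in capitals (RefSeq, GRCh38.p14).
RRAGB, chrX:55717499-55717798, plus strand: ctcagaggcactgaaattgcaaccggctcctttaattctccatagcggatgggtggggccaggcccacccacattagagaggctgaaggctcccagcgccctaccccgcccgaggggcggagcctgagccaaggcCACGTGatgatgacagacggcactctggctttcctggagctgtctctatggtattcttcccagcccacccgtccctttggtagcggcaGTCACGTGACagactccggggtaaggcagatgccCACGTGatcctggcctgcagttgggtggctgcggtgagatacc
It held 3 E-boxes, 1 of them inside the lysosomal element, whose first base lies at -27 from the start site.

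Of 12 genes of the energy and stress arm, 4 rose and 0 fell (33.3%, against 15.4% of all rows). At an unadjusted p under 0.05 in edgeR 5 were higher and 0 lower (28.5% of all rows), and DESeq2 and limma each called 4 higher and 0 lower. The counts were 5 and 0 after the GC correction (41.7%, against 29.3% of all rows). They were also 5 and 0 without control replicate 2 and HG_1 (41.7%, against 27.1%). TRIB3, a pseudokinase that binds AKT, was at 14.7, 16.8, 15.3, 15.8 and 13.2 CPM in control replicates 1 to 5 and at 42.8, 37.8, 36.9, 31.6 and 33.5 CPM in HG_1 to HG_5, with no overlap. It rose by 1.27 on the log2 scale (adjusted p = 2.9e-05, edgeR). BNIP3, which can bind RHEB and inhibit it, rose from 59.9 to 89.5 CPM (log2 fold change 0.58, adjusted p = 0.00113, edgeR). PRKAB1, a subunit of the energy sensor AMPK, rose by 0.41 (adjusted p = 0.000837), and DDIT4 (REDD1), an inhibitor that acts through TSC2, by 0.35 (adjusted p = 0.0146, edgeR).

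Of 18 genes of the GATOR and KICSTOR complexes and amino acid sensors, 2 rose and 1 fell (16.7%, against 15.4% of all rows). With the GC correction 3 were higher and 2 lower (27.8%, against 29.3% of all rows), and without control replicate 2 and HG_1 3 were higher and 3 lower (33.3%, against 27.1%). SESN1 and SESN2, which encode stress-induced sestrins that bind leucine and GATOR2, rose by 0.30 and 0.39 (adjusted p = 0.00327 and 0.0074, edgeR). Of 16 genes of the growth factor arm 0 rose and 1 fell in edgeR (6.25%, against 15.4% of all rows), the AKT phosphatase PHLPP1, by 0.32 (adjusted p = 0.00947, edgeR). This count depended on the setting. It was 2 higher and 2 lower at an unadjusted p under 0.05 (28.5% of all rows), 1 and 2 in DESeq2 (19.9% of all rows), 0 and 1 in limma (13.6% of all rows), 2 and 4 after the GC correction (37.5%, against 29.3% of all rows), 2 and 5 without control replicate 2 and HG_1 (43.8%, against 27.1%), and 2 and 6 with 1 surrogate variable (8 of 16, against 33.0%). IRS2, an adaptor of the insulin receptor named after its values were seen, was at 0.34 on the log2 scale (adjusted p = 0.0568) and at 0.43 after the GC correction (adjusted p = 0.0162, edgeR). Of 9 other subunits and assembly factors 0 rose and 1 fell (11.1%, against 15.4% of all rows), TTI1, which helps assemble mTOR complexes, by 0.21 (adjusted p = 0.0405, edgeR). TTI1 lost its call in 13 of 21 alternatives, among them leaving out any control library but replicate 2 or any HG library but HG_5 (adjusted p up to 0.0977). In this list 1 was higher and 2 lower at an unadjusted p under 0.05 in edgeR, 1 and 1 were called in DESeq2, and 1 and 0 in limma.

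Of 20 substrates and downstream effectors 2 rose and 3 fell (25.0%, against 15.4% of all rows). With the GC correction 4 were higher and 4 lower (40.0%, against 29.3% of all rows), and without control replicate 2 and HG_1 4 were higher and 5 lower (45.0%, against 27.1%). SGK1, a kinase activated by mTORC2, fell from 30.3 to 19.1 CPM (log2 fold change -0.67, adjusted p = 0.00171, edgeR). LPIN1, a phosphatidate phosphatase regulated by mTORC1, rose from 172 to 254 CPM (log2 fold change 0.56, adjusted p = 0.00884, edgeR). NDRG1, whose product is phosphorylated by SGK1, rose by 0.34 (adjusted p = 0.00988), and EIF4G1, the scaffold with which 4E-BP1 competes for eIF4E, fell by 0.19 (adjusted p = 0.00874, edgeR) and was not called in the 3 limma analyses of FPKM values (adjusted p up to 0.141). The fifth was ULK1, an autophagy kinase named after its values were seen, which fell by 0.23 (adjusted p = 0.0227, edgeR) and lost its call in 6 of 21 alternatives, namely the GC correction and leaving out control replicate 1 or 5, HG_2, HG_4 or HG_5 (adjusted p up to 0.0717).

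Of 7 genes for 14-3-3 proteins, which bind phosphorylated AKT1S1 and TSC2, 0 were called by edgeR, with 2 lower and 0 higher at an unadjusted p under 0.05. DESeq2 called 1 lower and limma 0. In edgeR 2 were lower after the GC correction (28.6%, against 29.3% of all rows), 1 higher and 1 lower of 6 tested without control replicate 2 and HG_1 (33.3%, against 27.1%), and 1 higher and 2 lower with 1 surrogate variable (42.9%, against 33.0%). YWHAE was at 259 ± 19.7 CPM in the control and 244 ± 5.96 CPM in the HG group (log2 fold change -0.08, adjusted p = 0.359, edgeR). PDZK1, a scaffold protein that the study examines together with mTOR, fell from 2.5 ± 0.711 to 0.366 ± 0.106 CPM (log2 fold change -2.75, SE 0.286, adjusted p = 0.000182, edgeR), on between 9 and 24 counts in the HG libraries.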

How the data were processed

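RNA of ARPE-19 cells was sequenced in 10 libraries. The authors deposited raw read counts per gene, with no normalization, and FPKM values, which are scaled by the authors to the length of the transcript and the size of the library. The submitters' processing notes name fastp 0.20.1, HISAT2 2.2.1 and GRCh38, and the counting program and annotation are not given in the sources used here. Control columns were matched to samples by title. The HG columns carry numbers and the HG samples letters, so HG_1 to HG_5 are column names only.

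Counts were filtered (filterByExpr), TMM normalized and tested with edgeR 4.0.16 in R 4.3.3 (quasi-likelihood, Benjamini-Hochberg over 14936 rows). Log2 CPM used a prior count of 2. Ratios were tested by exact permutation. Alternatives changed the test (DESeq2 1.42.0), the scaling (RLE, or none beyond library size) or the filter (none, or a minimum of 10 counts per library). Others used limma 3.58.1 on log2 FPKM with a pseudocount of 1 or 0.1 or with a minimum mean of 1 FPKM, 1 surrogate variable (sva 3.50.0), or fewer libraries (each left out, and control replicate 2 with HG_1). The last removed from every library its lowess trend (span 0.3) against GC content and length. Lengths, GC content and positions came from GENCODE 29 on GRCh38.

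The 10 genes, the lists and the libraries doubted were chosen with earlier results of these data known. From each list, genes with an adjusted p under 0.05 were named, up to 4 by smallest p. Also named were TXNIP as a check of the labels, EIF4EBP2, YWHAE, PDZK1 and the 5 genes most like MTOR. Of the genes this names, 1 is counted in the totals and not reported here. On simulated counts for this comparison edgeR called 171 of 199 changed genes among 14760, with 10 false calls. Of these, edgeR called 78 of 99 genes set to differ by 1 on the log2 scale and 93 of 100 set to differ by 2. Recovery of smaller differences, such as those of the 10 genes, was not tested. A count of 3 corresponds to between 0.0669 and 0.0912 CPM, which covers counting error only.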

Additional observations from a re-analysis of the deposited data

Results flagged for a closer look

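Dixon's test was applied to 26 groups of 5 libraries and found 8 with a distant library, while about 1.3 arise by chance. Control replicate 2 stood apart for MTOR, at 35.7 CPM where the remaining control libraries held 41.4 to 43.4, for RICTOR, at 27.8 CPM against 37.4 to 40.0, and for MLST8, at 88.4 CPM against 61.8 to 65.6. HG_1 stood apart for MLST8, at 97.9 CPM against 67.2 to 72.5 in the other HG libraries, and for AKT1S1, at 153 CPM against 109 to 118. It also stood apart for TSC1, at 50.3 CPM against 58.4 to 59.8, and for EIF4EBP1, at 73.1 CPM against 49.9 to 55.1. The log2 ratio of EIF4EBP1 to EIF4EBP2 was -0.616 in HG_1 against -1.41 to -1.19 in the other HG libraries. These are the libraries with the GC trends of 0.17 and 0.188 on the log2 scale per 10 points, and the part of that trend in each value was not tested beyond the correction.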

How the results depend on the processing

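RHEB and EIF4EBP1 kept their call and direction in all 21 alternatives, with adjusted p up to 0.0362 and 0.0458. Leaving out each library gave 0.18 to 0.22 for RHEB and 0.39 to 0.57 for EIF4EBP1, and the count of the 10 genes called was 2 each time. That count was 6 after the GC correction and 5 with 1 surrogate variable. Over all rows 4923 were called with 1 surrogate variable, 3965 after the GC correction and 4035 without control replicate 2 and HG_1, and 1648 to 2993 with each library left out. Of the 95 pathway genes these settings called 46, 34 and 39, and leaving out each library 15 to 26.

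The sign of MTOR changed in 13 of 21 alternatives and it was called in none. Its log2 fold change was 0.029 with the surrogate variable, 0.059 after the GC correction, 0.0093 with library size alone, 0.014 and 0.012 in limma on log2(FPKM + 0.1) and log2(FPKM + 1), 0.00021 with no filter, and -0.046 to 0.032 with each library left out. AKT1S1 was at 0.012 after the GC correction and between -0.12 and 0.022 with each library left out. The GC correction brought past the threshold RPTOR at 0.12, RICTOR at 0.14, MLST8 at 0.16 and TSC1 at 0.14. The surrogate variable did so for RICTOR at 0.21, TSC1 at 0.13 and TSC2 at -0.15, and leaving out control replicate 2 and HG_1 for MLST8 at 0.14. The difference in the RPTOR to RICTOR ratio lay between -0.2 and 0.036 with each library left out, above 0 without control replicate 2. That of TSC1 to TSC2 was 0.187 after the GC correction (exact permutation p = 0.0397, adjusted over the 3 ratios 0.0595), and 0.128 to 0.281 with each library left out, with an adjusted p under the threshold without HG_1 alone (0.281, adjusted exact permutation p = 0.0475). That of EIF4EBP1 to EIF4EBP2 lay between 0.444 and 0.672 with each library left out, with an unadjusted exact permutation p of 0.0159 or 0.0317. Adjusted over the 3 ratios it was under the threshold in 3 of these 10 (up to 0.0951 in the others). The cause was not tested.

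No paired analysis was possible because the control libraries carry numbers, the HG samples carry letters, and the HG columns could not be tied to samples. Each of the 10 genes had at least 1095 counts in every library.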

Other observations

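With the group means taken away, the genes whose log2 CPM followed MTOR most closely over the 10 libraries, among 12364 genes, were ZNF655 (Pearson r 0.992), ZNF320 (0.98), SYNJ2 (0.979), ARHGAP35 (0.977) and ZNF587 (0.977). After the GC correction r was 0.0602 for ZNF655 and 0.192 for ZNF320, and 0.949, 0.947 and 0.956 for SYNJ2, ARHGAP35 and ZNF587. These are descriptions over libraries of which control replicate 2 and HG_1 had the same GC trend. Among the 10 genes the strongest such relation was between RICTOR and MLST8 (r -0.979), which was -0.519 after the correction, while MTOR and TSC1 went from 0.947 to 0.788. After the correction the strongest was between RICTOR and EIF4EBP1, at 0.881, where it had been -0.862, followed by TSC2 and RHEB at -0.852, where it had been -0.166.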
